A study of Mus musculus with 12 samples.

Results

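Adrenergic receptors, kinases that phosphorylate them and the arrestins that then bind them were examined in the left ventricle of mice that lack Gch1 in cardiomyocytes. The set holds 9 genes chosen by name, of 26921 in the count table: the α1 receptors Adra1a, Adra1b and Adra1d, the β receptors Adrb1 and Adrb3, the receptor kinases Grk2 and Grk5, and the β-arrestins Arrb1 and Arrb2. RNA was sequenced from 6 WT and 6 cmGch1 KO mice, each 16 weeks old. All 12 mice carried loxP sites on both Gch1 alleles (Gch1 flox/flox), and cmGch1 KO mice carried in addition 1 copy of a Cre transgene under the α-MHC promoter, which acts in cardiomyocytes. WT mice were littermates without Cre, and no Cre-only hearts are among the 12 libraries, so the presence of Cre and the loss of Gch1 cannot be told apart here. Whole ventricular tissue was sequenced, so that fewer cells of a type and less RNA per cell cannot be told apart either.

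Noradrenaline and adrenaline act on the heart through several receptor families, of which the set holds α1 and β receptors. The β1 receptor couples to Gs, raises cyclic AMP and activates protein kinase A, which increases the rate and force of contraction. By contrast, α1 receptors couple to Gq and act through phospholipase C, calcium release and protein kinase C. Once a receptor is occupied, G protein-coupled receptor kinases phosphorylate it and β-arrestins bind, which uncouples the receptor from its G protein and starts its internalisation. Grk2 and Grk5 are the main receptor kinases of the myocardium, and Gch1 encodes GTP cyclohydrolase, the first enzyme of tetrahydrobiopterin synthesis.

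On GRCm38 (GENCODE M21), Grk5 lies on chr19:60889749-61095968 and Adra1a on chr14:66635251-66771168, both on the plus strand. Adrb1 and Grk2 are also on chromosome 19, at chr19:56722199-56733113 on the plus strand and chr19:4286001-4306222 on the minus strand. Adra1b (chr11:43774606-43901210, minus) and Arrb2 (chr11:70432635-70440828, plus) share chromosome 11, while Adra1d lies on chr2:131545850-131562283 (minus), Adrb3 on chr8:27225776-27250616 (minus) and Arrb1 on chr7:99535466-99606771 (plus). Of the exon bases of Adra1d, 7.74% overlap the antisense gene Gm14285, and 24.9% of those of Adrb3 overlap the antisense gene Gm45470. The strand setting of the counting is not given in the sources used here, so reads of these overlapping stretches may not be separable.

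Promoter sequence from RefSeq (GRCm38.p6), taken as the 250 bases before an annotated start, was matched for 3 of the 9 genes, Adra1b with 2 starts, Adrb1 and Grk5. The promoters of Grk5, the receptor kinase that differed most between genotypes, and of Adrb1, the principal β receptor of the myocardium, are shown because they differ in base composition. Capitals mark a GC box, read here as CCGCCC because the match GGGCGG is on the other strand.
Grk5, chr19:60889499-60889748, plus strand: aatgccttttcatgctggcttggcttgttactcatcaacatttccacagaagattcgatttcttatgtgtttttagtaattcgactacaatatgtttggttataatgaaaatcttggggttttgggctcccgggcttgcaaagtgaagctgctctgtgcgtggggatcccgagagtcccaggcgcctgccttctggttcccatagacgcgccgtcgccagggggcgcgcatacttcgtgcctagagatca
Adrb1, chr19:56721867-56722116, plus strand: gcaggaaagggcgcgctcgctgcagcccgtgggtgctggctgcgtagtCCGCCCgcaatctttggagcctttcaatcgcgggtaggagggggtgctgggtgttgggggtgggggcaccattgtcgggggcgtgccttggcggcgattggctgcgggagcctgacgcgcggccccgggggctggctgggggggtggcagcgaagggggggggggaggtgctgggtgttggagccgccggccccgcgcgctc
The Grk5 promoter had 49.6% G and C and 13 CpG dinucleotides, and the Adrb1 promoter 74.0% and 24, against a median of 52.4% and 6 over 32851 promoters. The Adra1b promoters had 72.8% G and C with 22 CpG at chr11:43836490-43836739 and 41.6% with 3 CpG at chr11:43901238-43901487. A GC box (GGGCGG, both strands searched), present in 32.7% of all promoters, was found in Adrb1, 202 to 197 bases before the start, and in the first of these Adra1b promoters, 185 to 180 bases before the start. None of the 4 windows held the letters of an MCAT element (CATTCC, 12.6% of all promoters), a GATA site (AGATAA, 9.99%), an E-box (CACGTG, 6.02%), a cyclic AMP response element (TGACGTCA, 1.55%) or a TATA box (TATAAA, 12.4%), which describes these letters only.

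Library totals ranged from 19921398 to 37917806 counts. Levels are given as cpm, that is, counts scaled to the size of the library and by edgeR's TMM factors. Gch1 ranged from 9.27 to 12.1 cpm over WT libraries and from 3.92 to 6.32 cpm over cmGch1 KO libraries, with no overlap (log2 fold change -0.96, SE 0.11, edgeR adjusted p = 0.000688). The source of the remaining Gch1 reads was not tested. In cmGch1 KO replicates 2 and 3, Xist was at 86.7 and 99.0 cpm with 0 counts of 4 Y-linked genes, while the other 10 libraries had Xist at or under 0.234 cpm and Y-linked genes summing to between 167 and 192 cpm. The labels give no sex, but high Xist without Y-linked counts is the pattern of female hearts. It was present in cmGch1 KO replicates 2 and 3 and in no WT library, so that the genotypes were not balanced for sex. These 2 libraries, called Xist-high below, also had the lowest mitochondrial share of counts, 14.9% and 16.1% against 18.3% to 22.9%, and the values of called members and pathway genes, and of members that moved with them, are also given without them.

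Of the 9 genes, 8 passed the filter on low counts (over 3 cpm in at least 6 libraries) and were tested with the other genes, 11225 in all. Adra1a was lower and Grk5 was higher in cmGch1 KO hearts at an adjusted p under 0.05, and the other 6 tested genes did not pass. Among all tested genes 0.445% were called lower and 0.677% higher. With so few members the counts themselves say little, and the values of each gene follow.

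Adra1a encodes the α1A receptor. It was at 15.5 cpm in the lowest WT library, with a median of 23.2 and a highest value of 25.3 cpm, and at 4.30, 10.9 and 15.2 cpm (lowest, median, highest) in cmGch1 KO libraries. All 6 cmGch1 KO libraries lay below the lowest WT library, WT replicate 1, although the highest of them, replicate 4, was within 1 cpm of it. Ranges of the genotypes were separate for 1.87% of tested genes, and separate with the KO lower for 0.802%. Mean levels were 22.0 ± 3.68 and 10.7 ± 3.86 cpm (WT and cmGch1 KO, SD, n = 6 each), so that the KO stood at 48.4% of WT. The log2 fold change was -1.04 (SE 0.23, 95% interval -1.54 to -0.53, edgeR adjusted p = 0.0412), and the exact two-sided permutation test over libraries gave p = 0.00216, the lowest value possible for 6 against 6. Only 0.205% of tested genes had a log2 fold change of this size or more in either direction.

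The 2 Xist-high libraries had the lowest Adra1a of the 12, 4.30 and 8.81 cpm. The other 4 cmGch1 KO libraries lay between 10.6 and 15.2 cpm, with a mean of 12.7 ± 2.15 cpm (SD, n = 4), or 57.7% of the WT mean. Without the Xist-high libraries the log2 fold change was -0.79 (SE 0.15, adjusted p = 0.0555). It was -0.81 once sex-linked expression entered as a covariate (SE 0.19, adjusted p = 0.0966). The direction was kept and the call was lost in both fits. The unadjusted edgeR p was 0.000408 over all libraries, 0.000208 without the Xist-high libraries and 0.000912 with the covariate. The call was also lost in 7 of 12 fits that each left out 1 library (WT replicates 2, 3, 4, 5 and 6, cmGch1 KO replicates 3 and 5), with log2 fold changes from -1.16 to -0.88 and adjusted p from 0.0198 to 0.109 over the 12 fits.

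The other α1 receptors did not pass the test. Adra1b, the α1B receptor, was at 46.3, 47.5 and 54.8 cpm (lowest, median, highest) in WT and at 39.7, 45.5 and 59.0 cpm in cmGch1 KO libraries. The ranges overlapped, with 4 cmGch1 KO libraries below the lowest WT library and 1, replicate 2, above the highest. The log2 fold change was -0.05 (SE 0.09, 95% interval -0.25 to 0.15, edgeR adjusted p = 0.92), an interval that leaves out the -1.04 measured for Adra1a. Adra1d, the α1D receptor, was at 3.75, 6.25 and 7.30 cpm in WT and at 5.16, 6.28 and 9.43 cpm in cmGch1 KO libraries. Its ranges overlapped too, and the log2 fold change was 0.17 with a wide 95% interval, from -0.26 to 0.60 (SE 0.19, edgeR adjusted p = 0.835). It was 0.017 without the Xist-high libraries, 0.0096 with a sex-linked covariate, and 0.048 without cmGch1 KO replicate 2 or 0.066 without WT replicate 4, with no call in any of these fits. The difference in fold change between Adra1a and the other α1 receptors was not tested.

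Adrb1, the β1 receptor, was at 23.8, 26.1 and 30.9 cpm (lowest, median, highest) in WT and at 18.5, 25.4 and 36.3 cpm in cmGch1 KO libraries. The means were close, 26.6 ± 2.43 and 26.9 ± 7.01 cpm (SD, n = 6 each), but the cmGch1 KO libraries fell on both sides of the WT range: 2 below its lowest value and 2 above its highest. The latter were the Xist-high libraries, at 34.2 and 36.3 cpm, while the other 4 had a mean of 22.7 ± 3.38 cpm (SD, n = 4), or 85.2% of WT. The log2 fold change was 0.01 over all libraries (SE 0.15, 95% interval -0.31 to 0.34, edgeR adjusted p = 0.99) and -0.23 without the Xist-high libraries (SE 0.11, edgeR adjusted p = 0.709). Neither passed the threshold.

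Adrb3, the β3 receptor, was near the limit of detection. It had 2, 3, 4, 15, 4 and 2 counts in WT replicates 1 to 6 and 1, 5, 4, 0, 4 and 1 in cmGch1 KO replicates 1 to 6. A count of 0 allows up to 3 counts, which is 0.0828 to 0.139 cpm depending on the library and covers counting error only. WT replicate 4 held 15 of these counts, and in the other 11 libraries the count was at most 5. Adrb3 was not tested with the other genes, and the exact two-sided permutation test of its cpm gave p = 0.513. A difference between genotypes was not detectable at this depth.

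**Figure D1:**
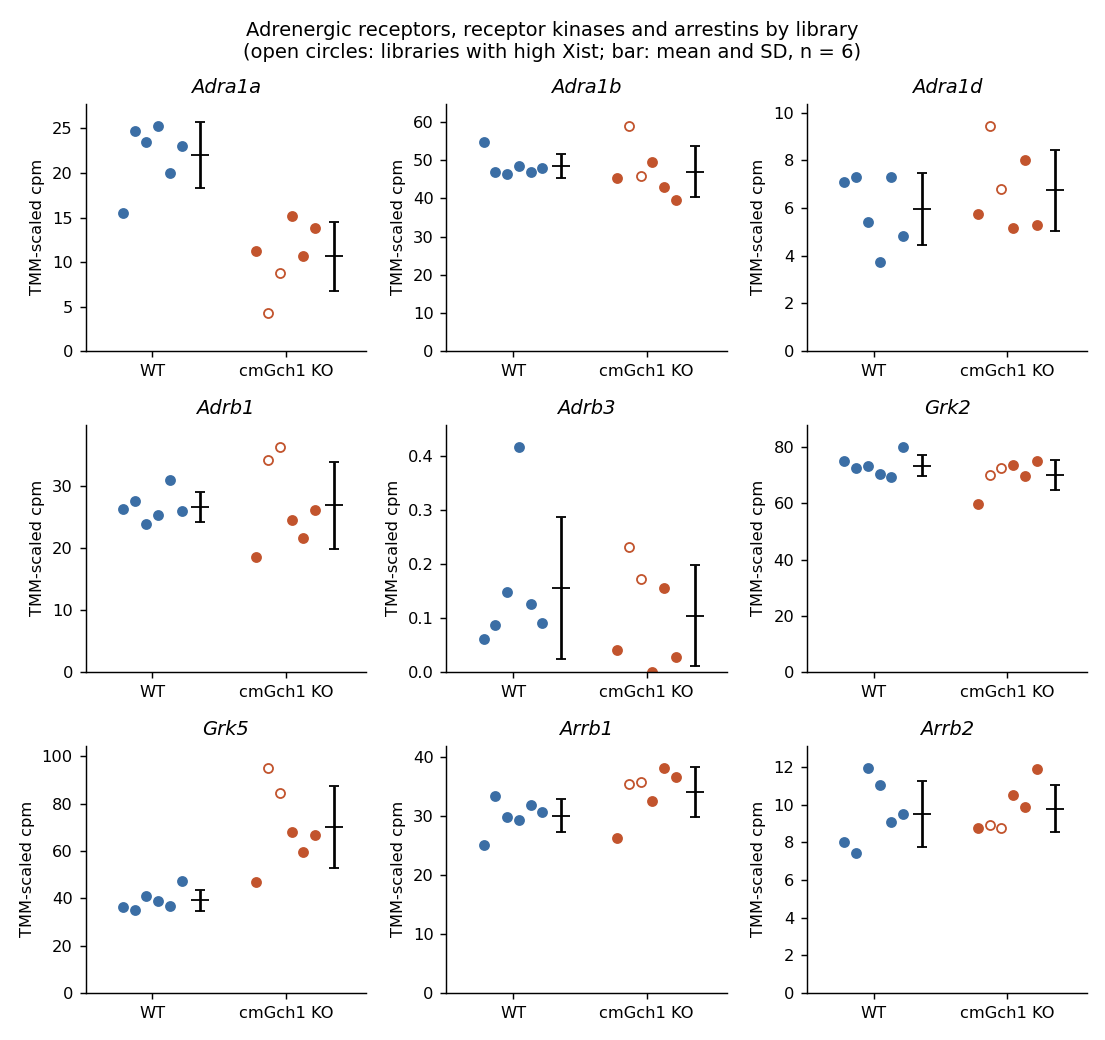
Each panel plots 1 of the 9 genes, with TMM-scaled cpm on a linear axis from 0 and 1 point per library (6 WT, 6 cmGch1 KO), beside the mean and SD of each genotype; the Xist-high libraries have their own marker. Adra1a lies between 4.30 and 15.2 cpm in cmGch1 KO and between 15.5 and 25.3 cpm in WT, and for Grk5 5 of 6 cmGch1 KO libraries lie above the highest WT library.

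Grk5 was the member with the strongest difference by its adjusted p. This kinase is held at the plasma membrane, where it phosphorylates occupied receptors, and it is also known to enter the nucleus of cardiomyocytes. It was at 35.1, 37.6 and 47.3 cpm (lowest, median, highest) in WT and at 46.9, 67.5 and 95.0 cpm in cmGch1 KO libraries. In 5 of 6 cmGch1 KO libraries Grk5 was above every WT library, and the ranges overlapped only through cmGch1 KO replicate 1 (46.9 cpm) and WT replicate 6 (47.3 cpm). The mean rose from 39.1 ± 4.50 to 70.2 ± 17.3 cpm (SD, n = 6 each), 1.80-fold. The log2 fold change was 0.85 (SE 0.14, 95% interval 0.52 to 1.17, edgeR adjusted p = 0.0094; exact two-sided permutation test, p = 0.00433), a size reached by 0.419% of tested genes in either direction.

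As for Adra1a, the Xist-high libraries were at the far end for Grk5, with the highest values of the 12, 95.0 and 84.5 cpm. The other 4 cmGch1 KO libraries lay between 46.9 and 68.2 cpm, with a mean of 60.4 ± 9.75 cpm (SD, n = 4), or 154% of WT. The log2 fold change was 0.63 both without the Xist-high libraries (SE 0.12, adjusted p = 0.0542) and once sex-linked expression entered as a covariate (SE 0.11, adjusted p = 0.0267). Grk5 was called in all 12 fits that left out 1 library, with log2 fold changes from 0.73 to 0.94.

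Grk2, the more general receptor kinase, which is recruited to the membrane by free Gβγ, did not pass the test. It was at 69.3, 72.9 and 80.0 cpm (lowest, median, highest) in WT and at 59.7, 71.3 and 75.0 cpm in cmGch1 KO libraries, and only replicate 1 of the cmGch1 KO group lay below the WT range. The log2 fold change was -0.07 (SE 0.07, 95% interval -0.21 to 0.08, edgeR adjusted p = 0.807), the narrowest interval of the 8 genes. Of the other receptor kinases, Grk6 averaged 22.9 ± 0.801 (WT) and 20.7 ± 1.57 (cmGch1 KO) cpm (log2 fold change -0.14, edgeR adjusted p = 0.423) and Grk3 at 15.2 ± 2.20 and 15.8 ± 2.69 cpm (0.06, edgeR adjusted p = 0.931), each SD over n = 6. Grk4 was under the filter, at 1.94 and 1.96 cpm.

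The β-arrestins did not pass either. Arrb1 was at 25.1, 30.2 and 33.3 cpm (lowest, median, highest) in WT and at 26.2, 35.5 and 38.1 cpm in cmGch1 KO libraries, 4 of which were above the highest WT library. Its log2 fold change was 0.19 (SE 0.09, 95% interval -0.02 to 0.40, edgeR adjusted p = 0.494; exact two-sided permutation test, p = 0.0801). Arrb2 was at 7.42, 9.30 and 11.96 cpm in WT and at 8.77, 9.41 and 11.89 cpm in cmGch1 KO, so that every cmGch1 KO library was inside the WT range. Its log2 fold change was 0.05 (SE 0.13, 95% interval -0.23 to 0.33, edgeR adjusted p = 0.944).

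**Figure D2:**
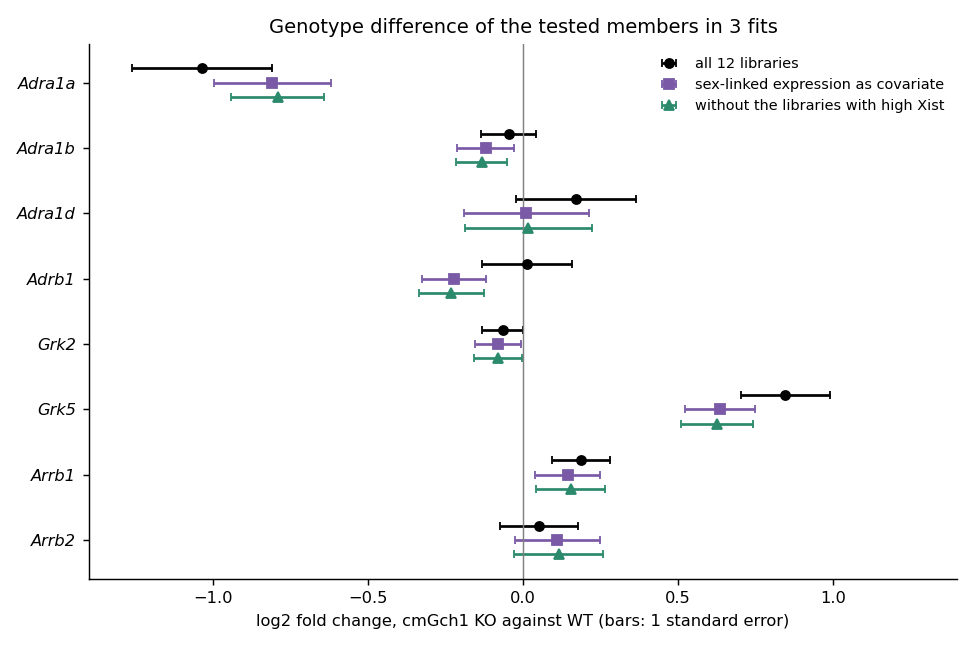
The x axis gives the genotype difference (log2, cmGch1 KO over WT) of the 8 tested genes, with bars of 1 standard error, from all 12 libraries, after adding a sex-linked covariate, and without the Xist-high libraries. Adra1a stays on the negative side (-1.04, -0.81 and -0.79) and Grk5 on the positive side (0.85, 0.63 and 0.63), whereas Adrb1 moves from 0.01 to -0.22 and -0.23.

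To compare the genes with each other, levels were divided by the length of their merged exons. In WT the order in cpm per kb was Grk2 (16.4), Adra1b (14.4), Adrb1 (7.88), Grk5 (5.54), Arrb2 (3.34), Adra1d (3.13), Arrb1 (2.68), Adra1a (2.52) and Adrb3 (0.0460). Ranges of neighbours overlapped for Grk2 and Adra1b, although Grk2 was higher in 6 of 6 libraries, and for each step among Arrb2, Adra1d, Arrb1 and Adra1a, whose order is therefore not resolved. In cmGch1 KO hearts Grk5 stood above Adrb1, at 9.94 against 7.95 cpm per kb and in 6 of 6 libraries, while in WT hearts Adrb1 was above Grk5 in 6 of 6. Adra1a was at 1.22 cpm per kb in cmGch1 KO, below Arrb1 (3.05) with no overlap. The place of Adra1a depended on the length used: with the longest annotated transcript it ranked 6 rather than 8 in WT, and 8 with either length in cmGch1 KO.

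**Figure D3:**
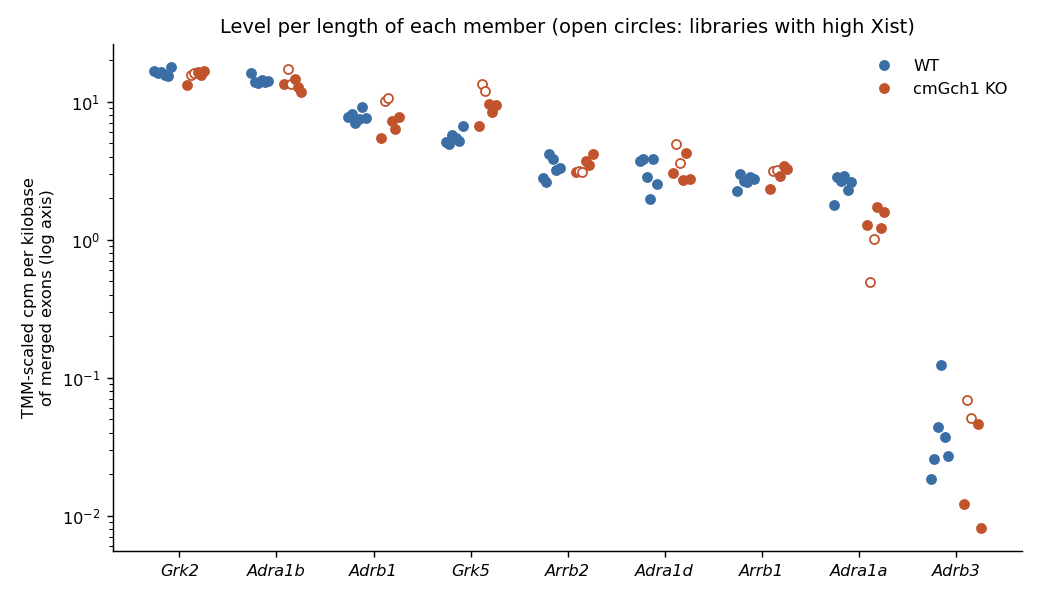
Cpm per kb of merged exons is shown on a log10 axis for the 9 genes in each library of both genotypes. The order runs from Grk2 (16.4 cpm per kb in WT) to Adrb3 (0.0460), and the cmGch1 KO library with 0 counts of Adrb3 has no place on a log axis and is not drawn.

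Ratios between members within a library do not depend on the scaling of that library, and they are given as descriptions. The ratio of Grk5 to Grk2 per kb was 0.337 ± 0.0277 (SD, n = 6) in WT, between 0.305 and 0.375, and 0.632 ± 0.138 (SD, n = 6) in cmGch1 KO, between 0.498 and 0.860. The ranges did not overlap, with or without the Xist-high libraries: the other 4 cmGch1 KO libraries lay between 0.498 and 0.587. The library with the least Grk5 among cmGch1 KO, replicate 1, also had the least Grk2 (59.7 cpm). WT replicate 6, with the most Grk5 among WT, had the most Grk2 (80.0 cpm). The overlap seen for Grk5 alone was not seen in the ratio. The ratio of Adra1a to Adra1b was 0.109 to 0.204 in WT and 0.0283 to 0.135 in cmGch1 KO, and that of Adra1a to Adrb1 was 0.228 to 0.387 and 0.0487 to 0.239. Both overlapped slightly, through WT replicate 1 in each case. The ratio of Arrb2 to Arrb1 was 1.25 ± 0.251 in WT and 1.14 ± 0.164 in cmGch1 KO (SD, n = 6 each), with overlap.

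**Figure D4:**
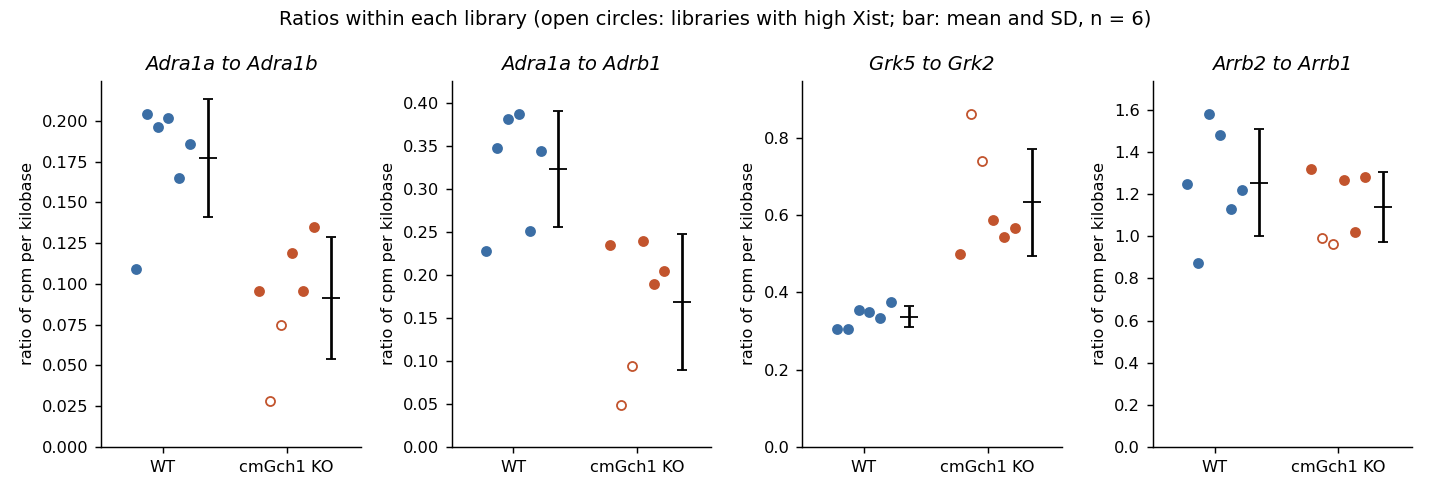
Each panel shows 1 ratio of 2 genes per kb of merged exons on a linear axis from 0, with 1 point per library and the mean and SD of each genotype. For Grk5 to Grk2 the WT libraries lie between 0.305 and 0.375 and the cmGch1 KO libraries between 0.498 and 0.860, while the other 3 ratios overlap.

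The genes whose log2 cpm followed a member most closely over the 12 libraries were listed as a description. The points differ in library depth and genotype. The Xist-high libraries were at an end of the order for Adra1a, Adrb1 and Grk5, and their part in these correlations was not tested. For Adra1a the 5 most alike included Slc25a12 (Pearson r 0.945, and 0.869 after the genotype means were removed), Kcnj3 (0.929), Adcy1 (0.923) and Patj (0.921). A list made with Spearman's rho shared 0 of the 5. For Adrb1 they were Zfp651 (0.855), Echdc1 (0.852), Acbd6 (0.838), Kcnk3 (0.835) and Nrip2 (0.829), of which 2 were shared with Spearman's rho. For Grk5, added after its values were seen, they were Sulf2 (0.988, and 0.955 after the genotype means were removed), Eno1 (0.977), Mtus2 (0.958), Slc38a1 (0.956) and Azin1 (0.945).

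Around the members, 9 lists of pathway genes with 81 genes were examined, of which 70 were tested. Of these 1 was called lower, Maob, and 1 higher, Prkcd, or 2.86% against 1.12% of all tested genes. At an unadjusted p under 0.05 there were 4 lower and 5 higher, 12.9% against 11.5% of all tested genes, and the median log2 fold change was -0.01, equal to that of all tested genes.

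Downstream of β receptors, none of the 11 tested genes of the Gs and cyclic AMP list passed. Adcy5, 1 of the main adenylyl cyclases of cardiomyocytes, averaged 115 ± 8.47 (WT) and 147 ± 18.0 (cmGch1 KO) cpm (SD, n = 6 each; log2 fold change 0.36, SE 0.09, edgeR adjusted p = 0.0711), with overlap. Whether Adcy5 passed depended on the fit: it did in 4 of 10 alternatives (library size alone, the Wald test of DESeq2, the replicate block and the surrogate variable; adjusted p from 0.00997 to 0.0467) and without cmGch1 KO replicate 1 (log2 fold change 0.42, edgeR adjusted p = 0.00453). It did not pass without the Xist-high libraries (0.31, edgeR adjusted p = 0.371) or with a sex-linked covariate (0.31, edgeR adjusted p = 0.305). Adcy6, the other main cyclase, was at 211 ± 37.4 and 204 ± 55.4 cpm (-0.05, edgeR adjusted p = 0.961), and Adcy9 at 25.8 ± 4.43 and 21.8 ± 2.89 cpm (-0.24, edgeR adjusted p = 0.475). In the list of protein kinase A and its anchors 0 of 10 tested genes passed. Pkia, an inhibitor of the kinase, averaged 365 ± 51.4 (WT) and 256 ± 75.4 (cmGch1 KO) cpm (log2 fold change -0.51, SE 0.16, edgeR adjusted p = 0.169). Pkia was called lower in 3 of 10 alternatives (the Wald test of DESeq2, the replicate block and the surrogate variable; adjusted p from 0.00963 to 0.0437) and without cmGch1 KO replicate 1 (-0.69, edgeR adjusted p = 0.00339). Without the Xist-high libraries Pkia was not called (-0.43, edgeR adjusted p = 0.651), nor was it with a sex-linked covariate (-0.42, edgeR adjusted p = 0.556). The catalytic subunit gene Prkaca was at 295 ± 17.4 and 297 ± 19.9 cpm (0.01, edgeR adjusted p = 0.981). Among 8 tested substrates of protein kinase A in cardiomyocytes 0 passed. Their median log2 fold change was -0.12, and the most abundant per kb, Pln, which encodes the calcium pump inhibitor phospholamban, was at -0.13 (edgeR adjusted p = 0.613). Rrad, an inhibitor of the L-type calcium channel, and Cacna1c, the channel's pore subunit, had the lowest p of these substrates, at 0.46 (SE 0.22, edgeR adjusted p = 0.442) and -0.28 (SE 0.13, edgeR adjusted p = 0.45).

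Downstream of α1 receptors, the Gq list had 13 tested genes with a median log2 fold change of -0.02, and 1 was called. Prkcd, protein kinase C delta, was at 10.6, 12.7 and 14.9 cpm (lowest, median, highest) in WT and at 15.3, 17.8 and 19.6 cpm in cmGch1 KO libraries. Every cmGch1 KO library was above every WT library, with a log2 fold change of 0.46 (SE 0.09, edgeR adjusted p = 0.0171), and 0.44 without the Xist-high libraries (edgeR adjusted p = 0.102). The call was also lost with a sex-linked covariate (0.44, edgeR adjusted p = 0.0763) and without WT replicate 5 (0.45, edgeR adjusted p = 0.0547) or cmGch1 KO replicate 2 (0.42, edgeR adjusted p = 0.0514). Its relatives Prkca and Prkce were at 0.02 (edgeR adjusted p = 0.964) and -0.29 (edgeR adjusted p = 0.438), and Gnaq and Gna11, the G proteins that the receptors use, both at -0.03. Among 9 tested genes of the Gi and RGS list 0 passed; Gnao1 had the lowest p, at 20.9 ± 2.21 and 27.0 ± 4.57 cpm (SD, n = 6 each; 0.37, edgeR adjusted p = 0.171), and it was called with the surrogate variable (adjusted p = 0.0165) and without cmGch1 KO replicate 1 (0.45, edgeR adjusted p = 0.0284). Gnao1 was not called without the Xist-high libraries (0.38, edgeR adjusted p = 0.494) or with a sex-linked covariate (0.37, edgeR adjusted p = 0.423). Rgs5, which shortens Gi and Gq signals and was the most abundant of that list per kb, was at 645 ± 34.7 and 617 ± 47.4 cpm (SD, n = 6 each; -0.06, edgeR adjusted p = 0.816).

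The genes that make and clear catecholamines had 6 tested members of 10, with a median log2 fold change of -0.28. Maob, a mitochondrial monoamine oxidase, was at 52.1, 57.1 and 60.7 cpm (lowest, median, highest) in WT and at 31.9, 36.6 and 45.3 cpm in cmGch1 KO libraries. The ranges were separate, and the log2 fold change was -0.61 (SE 0.08, edgeR adjusted p = 0.00225), or -0.53 without the Xist-high libraries (edgeR adjusted p = 0.0182). Maob was called in all 12 fits that left out 1 library and in all 10 other alternatives. Slc22a3, an extraneuronal catecholamine transporter, was at 10.2, 11.7 and 12.3 cpm in WT and at 4.90, 8.52 and 9.15 cpm in cmGch1 KO, separate as well but not called (log2 fold change -0.54, SE 0.14, edgeR adjusted p = 0.0854), except by the Wald test of DESeq2 (adjusted p = 0.00648) and with the surrogate variable (adjusted p = 0.0304). Slc22a3 was at -0.37 without the Xist-high libraries (edgeR adjusted p = 0.136) and at -0.38 with a sex-linked covariate (edgeR adjusted p = 0.189). Maoa, the other monoamine oxidase, was at 0.15 (edgeR adjusted p = 0.816). Th, which makes the catecholamine precursor in sympathetic nerves, was near 0 in both genotypes. In WT its median was 0 and its highest library 0.0316 cpm (mean 0.00527 cpm), and it had 0 counts in all 6 cmGch1 KO libraries. Such counts cannot show a difference between genotypes.

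The α2 receptors, which couple to Gi, gave 0 tested genes of 3, with Adra2b the highest per kb, at 0.959 and 0.909 cpm. The receptor trafficking list, with 11 tested genes and a median log2 fold change of 0.04, had 0 called, and Usp20 (0.21, edgeR adjusted p = 0.262) and Nsf (0.16, edgeR adjusted p = 0.346) had the lowest p. Nedd4, a ubiquitin ligase and the most abundant of that list per kb, was at 446 cpm in both genotypes.

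**Figure D5:**
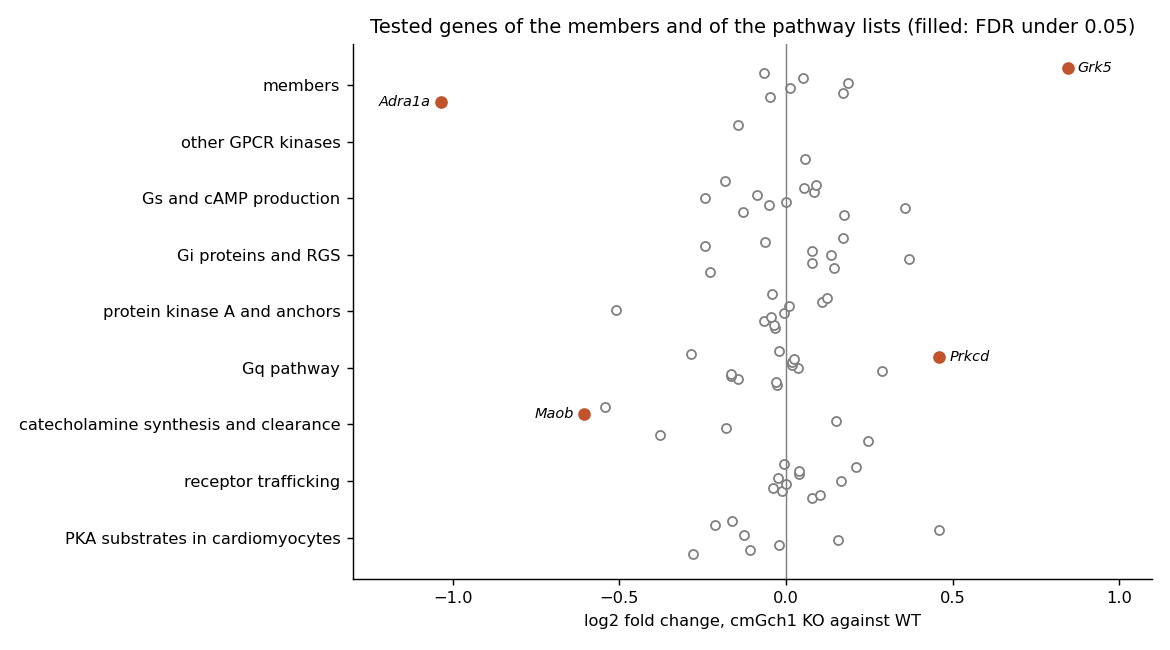
Each point is the genotype difference (log2, cmGch1 KO over WT) of 1 tested gene, for the members and for each pathway list with a tested gene, and filled points have an adjusted p under 0.05. Adra1a (-1.04), Maob (-0.61), Prkcd (0.46) and Grk5 (0.85) are filled, and the list medians lie between -0.28 (catecholamine synthesis and clearance) and 0.08 (Gi proteins and RGS).

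Markers of the cell types in the tissue were measured beside these results. The 8 cardiomyocyte markers summed to 61699 to 65924 cpm in WT and to 56578 to 60164 cpm in cmGch1 KO libraries, with no overlap. This separation rests on the TMM factors, which were 0.949 to 0.992 in WT and 0.970 to 1.09 in cmGch1 KO libraries. Myh6 was the largest part of the sum, with means of 23061 and 20297 cpm (WT and cmGch1 KO). The Xist-high libraries were at 56578 and 57245 cpm. Of these 8 markers 0 were called, and their median log2 fold change was -0.14, against -0.01 for all tested genes. Scaled by library size alone, the medians were -0.07 and 0.07. Actc1 (0.10) and Tnnc1 (0.10) were above 0, and the other markers of the list were below it. Of 5 tested macrophage markers 0 were called, but 4 were higher at an unadjusted p under 0.05, against 787 of all 11225 tested genes. The macrophage sums were 132 to 232 cpm in WT and 172 to 275 cpm in cmGch1 KO. Among 8 smooth muscle and pericyte markers Acta2 alone was called, higher (log2 fold change 0.66, edgeR adjusted p = 0.00672), a call lost without the Xist-high libraries (0.51, edgeR adjusted p = 0.0506). Myh11 (-0.24), Tagln (-0.40) and Cnn1 (-0.21), smooth muscle genes of the same list, had values of the opposite sign that did not pass, and the list summed to 1121 to 1268 cpm in WT and 1188 to 1259 cpm in cmGch1 KO. Endothelial markers summed to 558 to 772 and 654 to 781 cpm, and fibroblast markers to 594 to 800 and 654 to 806 cpm, with 0 called in either list. Adipocyte markers, of which 0 were tested, summed to 2.05 to 9.50 and 0.469 to 8.79 cpm. They summed to 8.17 and 8.79 cpm in the Xist-high libraries and to 0.469 to 3.39 cpm in the other cmGch1 KO libraries. The 9.50 cpm was in WT replicate 4, the library with the most Adrb3, and a relation between the 2 was not tested. Atrial markers summed to 7.63 to 284 and 45.1 to 187 cpm, and nerve and glia markers to 13.3 to 18.6 and 16.4 to 26.8 cpm. Bmp10 and Retn, markers of atrium and adipocytes, had means under 0.5 cpm in both genotypes. The part of these markers in the differences of Adra1a and Grk5 was not tested.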

How the data were processed

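RNA was sequenced from the left ventricle of 6 WT and 6 cmGch1 KO mice. Genotype, age and the numbering of libraries from 1 to 6 came from the labels, and each library is 1 mouse per the methods. The authors prepared dUTP paired-end libraries and counted reads per gene by HISAT2, Picard and featureCounts; the submitters' processing notes add SAMtools and GRCm38. The deposited count table holds whole-number counts per Ensembl gene. A second deposited table gives normalized log2-like values by the authors; its tool is not given in the sources used here, and it served only as an alternative.

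Counts were tested in edgeR 4.0.16 (R 4.3.3) with TMM factors, a filter of over 3 cpm in 6 or more libraries, the quasi-likelihood test of genotype, and Benjamini-Hochberg adjustment over 11225 genes at 0.05. Intervals of 95% used 10 degrees of freedom. For each member an exact permutation test compared the genotypes over 924 splits, unadjusted. On simulated data for this comparison (11225 genes) the fit recovered 65 of 100 genes changed 1.5-fold and 96 of 100 changed 2-fold, with 6 false calls. The simulated counts were drawn independently for each gene and library, without Xist-high libraries. The false calls therefore do not give the error rate in the real data. Chi-square per degree of freedom between libraries of a genotype was 12.5 to 78.9 over 30 pairs, so none was a copy. Symbols and lengths came from GENCODE M21, which held 26582 of 26921 identifiers, and promoters from RefSeq.

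The members, lists and tests were chosen with earlier results of these data known. Named were the members, Gch1, sex-linked genes, called list genes, the 2 list genes with the lowest p and the most abundant per kb, called or near-absent markers, and the 5 genes most like Adra1a and Adrb1; not every gene the rule allows is named, and Adcy6, Grk4, Prkaca, Prkca, Gnaq, Maoa, Myh11, Tagln and Cnn1 were added after their values were seen. Alternatives were DESeq2 1.42.0 (size factors, Wald test), library size alone, other filters, a replicate block, a covariate (sex-linked expression, or 1 surrogate variable from sva 3.50.0), limma 3.58.1 on the deposited log2 values, and leaving out libraries.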

Additional observations from a re-analysis of the deposited data

Results flagged for a closer look

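In 18 groups of 6 libraries (9 genes in 2 genotypes), the highest or lowest library was compared with its nearest neighbour, a comparison in which chance alone marks about 1 group in 20. It marked 3. WT replicate 1 stood apart for Adra1b, at 54.8 cpm with the next WT library at 48.5 cpm. WT replicate 4 stood apart for Adrb3, at 0.417 cpm (15 counts) with the next at 0.148 cpm. cmGch1 KO replicate 1 stood apart for Grk2, at 59.7 cpm with the next at 69.6 cpm. Neither Adra1a nor Grk5 was marked in either genotype.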

How the results depend on the processing

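Over the alternatives, 50 genes called lower became 155 with the Wald test of DESeq2, 331 with 1 surrogate variable, 24 with sex-linked expression as a covariate, 18 without the Xist-high libraries and 28 to 96 when 1 library was left out. The 76 called higher became 218, 305, 40, 16 and 44 to 111 in the same order. Scaling by library size alone gave 36 lower and 116 higher and moved the median log2 fold change of all genes from -0.01 to 0.07. With that scaling Adra1b (0.0316) and Grk2 (0.0107) changed sign. Adra1a was called in 8 of 10 alternatives other than leaving out 1 library; it was not with sex-linked expression (-0.81) or without the Xist-high libraries (-0.79), which left 0 members called lower, and leaving out 1 library gave -1.16 to -0.88 and 0 to 1 members. Grk5 was called in 9 of these 10; it was not without the Xist-high libraries (0.63), which left 0 members called higher. The cause of these changes was not tested, though leaving out libraries also leaves fewer samples. Without the Xist-high libraries the unadjusted edgeR p of Adra1a was lower, 0.000208 against 0.000408 over all libraries. That of Grk5 was higher, 0.000176 against 4.06e-05. Adrb1, near 0, was at -0.00539 without a filter, -0.22 with sex-linked expression, -0.0222 from the deposited values with limma, -0.23 without the Xist-high libraries, and -0.0935 to 0.0991 when 1 library was left out (-0.0176, -0.00283, -0.0722 and -0.0935 without WT replicates 3 and 4 and cmGch1 KO replicates 2 and 3). Arrb2 was at -0.0130 without WT replicate 2 and -0.0180 without cmGch1 KO replicate 6, within a range of -0.0180 to 0.125. With the length of the longest transcript the WT mean ratios were 0.356 for Adra1a to Adra1b, 0.575 for Adra1a to Adrb1 and 0.281 for Grk5 to Grk2.

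The replicate numbers were not taken to pair the libraries, since the labels give them no shared litter, batch or day and not every same-numbered pair correlated over 0.1: the correlations of deviations were 0.676, 0.401 and 0.509 for numbers 1, 5 and 6 and -0.0945, -0.0775 and -0.128 for numbers 2, 3 and 4, and 5 of 12 libraries correlated best with their own number. The cmGch1 KO libraries of numbers 2 and 3 are the Xist-high ones, and whether same-numbered libraries shared a batch was not tested. With the number as a replicate block, 76 genes were lower and 112 higher, Adra1a was at -1.09 (edgeR adjusted p = 0.0451), Grk5 at 0.82 (0.0132) and Adrb1 at -0.0202, and Adcy5 (0.35, 0.0397) and Pkia (-0.54, 0.0219) were called.

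Depth limits Adrb3, with at most 15 counts in a library.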

Other observations

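Within cmGch1 KO hearts the level of Gch1 and the levels of Adra1a and Grk5 did not share an order. Gch1 was read from whole ventricle, and the authors hold that other cardiac cells also express it. Its order here is therefore no measure of Gch1 loss in cardiomyocytes. The library with the least Gch1, replicate 1 (3.92 cpm), had the least Grk5 of its group (46.9 cpm) and Adra1a at 11.2 cpm, near the group's median of 10.9 cpm. The library with the most Grk5 and the least Adra1a, replicate 2 (95.0 and 4.30 cpm), had Gch1 at 6.15 cpm, within the range of 3.92 to 6.32 cpm of its group. Of the other members, Adra1b and Adra1d were also highest of the 12 libraries in replicate 2 (59.0 and 9.43 cpm), whereas Grk2 was 9 and Arrb2 8 in order from the highest.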
